A study of Mus musculus with 2 samples.

Results

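The genes described here are 8 transcription factors of naive and effector lymphocytes, Tcf7, Lef1, Tbx21, Eomes, Id2, Id3, Klf2 and Bach2. They were taken by symbol from the deposited count tables, in which 30457 genes are listed in at least 1 of 2 libraries, and all 8 had reads in both. Their levels were followed across B cells, CD4 T cells, CD8 T cells and natural killer (NK) cells of the mouse spleen. The spleens came from female C57BL/6J mice that carried a subcutaneous Lewis lung carcinoma (LLC), a transplantable mouse lung tumour, and that were 10 weeks old when the tumour was injected. Every mouse had received 200 µg of anti-CD4 antibody on day 5 and again on day 9, and spleens were taken on day 12, so the CD4 class holds cells of anti-CD4-treated mice, and no untreated or tumour-free mice were compared here. Spleen cells of 3 mice were combined and kept frozen before use, and after thawing 2000 of them went onto 1 BD Rhapsody cartridge, a nanowell device that pairs single cells with barcoded beads. The beads were then divided. In TAS-Seq, cDNA was tailed with cytidines by terminal transferase, with a dideoxy terminator in the mix, before amplification, whereas the BD WTA kit used random priming for the second strand. Each method therefore gave 1 library from the same pool of cells. With 1 library per method there is no replicate and no test, so differences are given as folds, and intervals (95%, exact) cover counting error only.

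Naive T cells are maintained in a quiescent, recirculating state by factors that include TCF1 (Tcf7), LEF1, KLF2 and BACH2. In effector and memory CD8 T cells and in NK cells, the T-box factors T-bet (Tbx21) and EOMES drive cytotoxic genes and the response to IL-15. ID2 and ID3 have no DNA-binding domain and hold E proteins away from DNA, with ID2 required for NK cells and ID3 associated with naive and long-lived lymphocytes. Several of these factors also act in B cells, where KLF2 and BACH2 shape follicular and marginal zone B cells and restrain plasma cell differentiation.

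All 8 genes had promoter windows in RefSeq (GRCm38.p6), each reaching from 250 bases before to 50 bases after a transcript start, and 12 windows were found in all because Tcf7 has 2 and Lef1 has 4. One window of Tcf7 and 2 windows of Lef1 are shown because these genes had high levels in T cells and low levels in B cells, and the windows of Tbx21, Eomes and Id2 because these had their highest levels in NK cells. Capitals mark any of the searched motifs on either strand. These were a TCF/LEF motif (CTTTGA or CTTTGT), an E box (CAGCTG or CACCTG), a T-box motif (GGTGTGA) and an SP/KLF motif (GGGGCGGGG). No motif overlapped another kind of motif in these windows. The second Lef1 window shown belongs to a start inside the gene.
Tcf7, chr11:52282965-52283264, minus strand: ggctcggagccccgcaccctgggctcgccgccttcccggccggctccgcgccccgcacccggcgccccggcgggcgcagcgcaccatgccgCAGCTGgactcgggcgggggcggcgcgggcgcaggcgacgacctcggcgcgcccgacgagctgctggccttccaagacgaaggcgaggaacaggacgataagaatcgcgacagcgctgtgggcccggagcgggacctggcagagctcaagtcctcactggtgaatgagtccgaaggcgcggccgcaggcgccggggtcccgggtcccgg
Lef1, chr3:131110047-131110346, plus strand: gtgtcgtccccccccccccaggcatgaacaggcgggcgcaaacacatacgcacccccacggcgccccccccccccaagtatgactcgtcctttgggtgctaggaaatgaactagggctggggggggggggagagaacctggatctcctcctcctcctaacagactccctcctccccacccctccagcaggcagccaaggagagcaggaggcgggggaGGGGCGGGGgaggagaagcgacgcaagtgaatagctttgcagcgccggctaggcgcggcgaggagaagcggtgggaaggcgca
Lef1, chr3:131156044-131156343, plus strand: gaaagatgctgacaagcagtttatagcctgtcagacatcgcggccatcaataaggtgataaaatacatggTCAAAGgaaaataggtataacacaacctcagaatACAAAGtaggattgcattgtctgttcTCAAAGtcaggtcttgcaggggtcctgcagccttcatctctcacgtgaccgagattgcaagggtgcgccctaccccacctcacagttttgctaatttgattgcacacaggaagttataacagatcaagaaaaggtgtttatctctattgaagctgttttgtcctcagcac
Tbx21, chr11:97115282-97115581, minus strand: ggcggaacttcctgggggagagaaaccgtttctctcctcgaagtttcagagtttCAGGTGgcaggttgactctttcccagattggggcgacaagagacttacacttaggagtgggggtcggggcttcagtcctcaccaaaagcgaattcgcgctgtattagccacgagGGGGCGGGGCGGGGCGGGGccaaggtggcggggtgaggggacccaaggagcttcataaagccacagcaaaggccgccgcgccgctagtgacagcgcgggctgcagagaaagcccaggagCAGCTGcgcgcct
Eomes, chr9:118477939-118478238, plus strand: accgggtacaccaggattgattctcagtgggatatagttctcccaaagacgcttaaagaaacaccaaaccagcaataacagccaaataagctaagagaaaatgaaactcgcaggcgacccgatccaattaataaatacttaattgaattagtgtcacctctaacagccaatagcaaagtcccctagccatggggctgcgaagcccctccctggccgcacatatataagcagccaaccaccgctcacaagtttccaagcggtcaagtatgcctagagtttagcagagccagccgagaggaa
Id2, chr12:25096043-25096342, minus strand: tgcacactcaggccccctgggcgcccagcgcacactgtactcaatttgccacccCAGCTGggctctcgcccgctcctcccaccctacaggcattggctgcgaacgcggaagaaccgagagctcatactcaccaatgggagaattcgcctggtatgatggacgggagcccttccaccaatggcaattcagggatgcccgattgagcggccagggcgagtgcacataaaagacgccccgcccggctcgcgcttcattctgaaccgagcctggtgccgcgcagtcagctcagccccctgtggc
The TCF/LEF motif was in 2 of the 12 windows, those of Lef1 and Bach2 with 1 each, and in 31.2% of all 32851 RefSeq windows. The Lef1 window with 3 matches had the lowest GC content of the 12 windows, 43.7%. E boxes were in 6 of the 12 windows (Tcf7, Lef1, Tbx21 and Id2, those of Lef1 lying in windows not shown) and in 32.9% of all windows. The SP/KLF motif was in 5 of the 12 windows (Lef1, Tbx21 and Klf2), some of which overlap, and in 11.4% of all windows. The T-box motif was in none of the 12 windows and in 3.98% of all windows. These matches describe letters in the windows and were not linked to the levels below.

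After filtering, the TAS-Seq library held 732 cells and the BD WTA library 708 cells. Before filtering, the libraries held 38656790 and 31608259 reads, with no cell barcode in common. Cells were put into classes by reads of marker genes, without use of the 8 genes. This gave 406 and 351 B cells, 63 and 72 CD4 cells, 115 and 113 CD8 cells, and 15 and 23 NK cells in the TAS-Seq and BD WTA libraries. Markers were high in the classes they define, as the rule requires. The summed level of 6 B-cell markers was 9809 and 10115 CPM (reads of a gene for each 1000000 reads) in B cells and between 18.0 and 160.3 CPM in the other 3 classes. The summed level of 6 T-cell markers was 4369 to 6799 CPM in CD4 and CD8 cells, 582 and 1178 CPM in NK cells, and 72.6 and 70.2 CPM in B cells. NK-cell markers summed to 17404 and 13508 CPM in NK cells and to at most 45.2 CPM elsewhere.

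**Figure D1:**
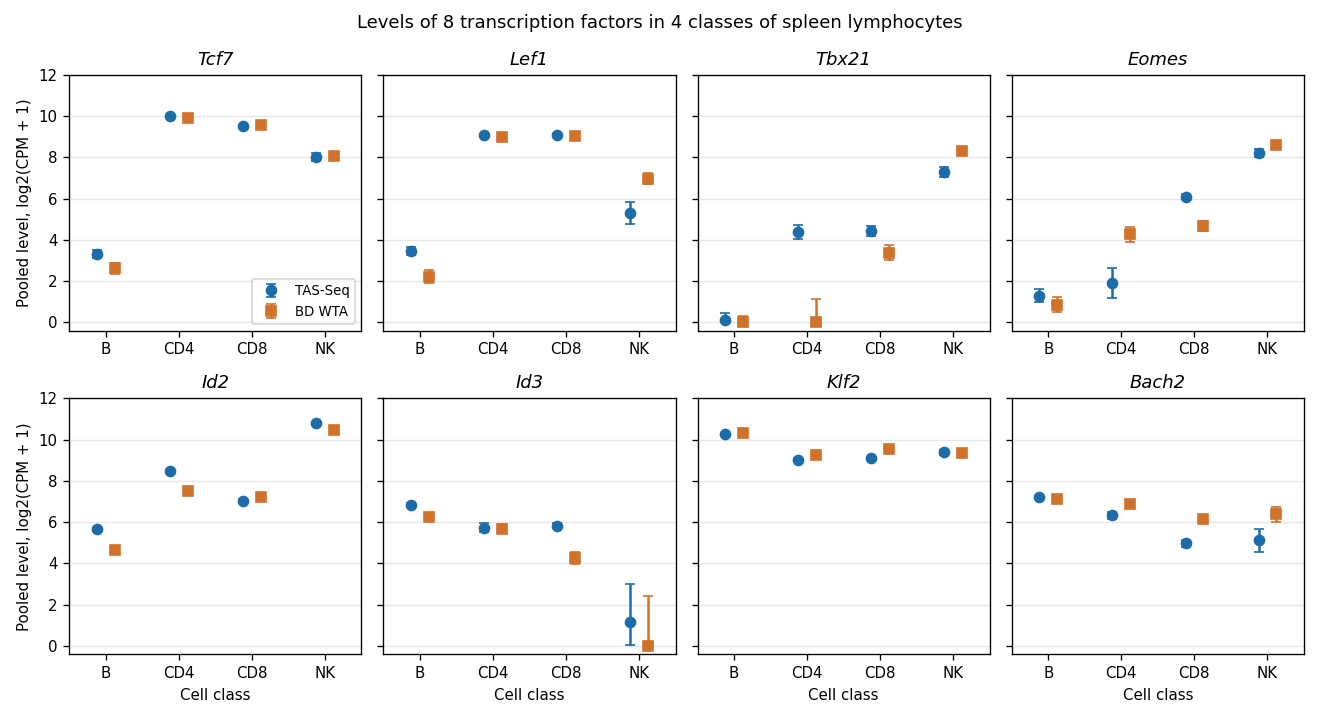
Pooled level of each gene as log2(CPM + 1) in B, CD4, CD8 and NK cells, with circles for TAS-Seq, squares for BD WTA and bars for the exact 95% Poisson interval. Tcf7 and Lef1 sit highest in CD4 and CD8 cells in both libraries, Tbx21, Eomes and Id2 in NK cells, and Id3, Klf2 and Bach2 in B cells.

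Levels below are pooled CPM, that is, all reads of a gene in a class divided by all reads of that class. Gene positions are those of GENCODE mouse release M21 on GRCm38. Tcf7 (chr11:52252371-52283014) encodes TCF1, an HMG-box factor that acts downstream of Wnt signals and keeps T cells naive or stem-like. In the TAS-Seq library its level was 1008 CPM in CD4 cells, 727 CPM in CD8 cells, 260.5 CPM in NK cells and 8.96 CPM in B cells. In the BD WTA library the 4 levels were 958, 752, 270.5 and 5.13 CPM. The order CD4, CD8, NK and B was thus the same in both libraries, and no neighbouring intervals overlapped. At an equal depth of 20000 reads per cell, Tcf7 reads were found in 93.8% (87.7 to 97.5) of CD8 cells by TAS-Seq and in 77.3% (68.3 to 84.7) by BD WTA. B cells, which should lack Tcf7, had reads in 10.9% and 0.923% of cells, and in 0.253% and 0.615% of cells when 5 reads were asked for. The low share of B cells with TAS-Seq reads of Tcf7 was therefore made up almost wholly of cells with 1 to 4 reads.

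Lef1 (chr3:131110471-131224356), the closest relative of Tcf7 among these genes, encodes a second HMG-box factor of T cells. In TAS-Seq it stood at 543 CPM in CD4 cells, 539 CPM in CD8 cells, 38.8 CPM in NK cells and 10.1 CPM in B cells. In BD WTA it stood at 504, 521, 124.5 and 3.65 CPM. The CD4 and CD8 intervals overlapped in both libraries, whereas NK cells lay below both T-cell classes and above B cells. Shares of cells with reads followed the same order, at 77.9% and 65.5% of CD8 cells and 11.4% and 2.15% of B cells. In CD8 cells Tcf7 and Lef1 reads occurred together in 85 of 113 cells by TAS-Seq and in 60 of 110 by BD WTA. The product of the 2 shares would give 82.5 and 55.6 cells, so the joint counts were near that product. Lef1 reads without Tcf7 reads occurred in 3 and 12 cells.

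Tbx21 (chr11:97098071-97115331) encodes T-bet, which directs interferon-gamma production and effector differentiation. Its level in NK cells was 155 CPM by TAS-Seq and 315 CPM by BD WTA. In CD8 cells it was 20.5 and 9.42 CPM, and in CD4 cells 19.8 CPM and 0 of 3163718 reads. B cells held 2 Tbx21 reads in TAS-Seq and none in BD WTA, where 3 reads would correspond to 0.192 CPM. NK cells were thus highest in both libraries. The CD8 and CD4 intervals overlapped in TAS-Seq, and those of CD4 and B cells in BD WTA.

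Eomes (chr9:118478212-118486132), the other T-box factor, supports memory CD8 T cells and mature NK cells. It reached 297 and 382 CPM in NK cells of the TAS-Seq and BD WTA libraries, 67.0 and 24.6 CPM in CD8 cells, 2.70 and 18.3 CPM in CD4 cells, and 1.43 and 0.769 CPM in B cells. The order NK, CD8, CD4 and B held in both libraries, although CD4 and B overlapped in TAS-Seq and CD8 and CD4 in BD WTA. Eomes reads were found in 60.0% and 40.0% of NK cells, 19.5% and 9.09% of CD8 cells, and 1.77% and 0.308% of B cells. In the BD WTA CD4 class the whole level came from 58 reads, all of them in 5 or fewer cells.

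Id2 (chr12:25093799-25097140) was the member that most fully covered the NK class. Its level was 1792 CPM in TAS-Seq NK cells and 1440 CPM in BD WTA NK cells, where it was read in 15 of 15 and 18 of 20 cells at equal depth. CD4 cells had 351 and 182 CPM, CD8 cells 129 and 146 CPM, and B cells 49.4 and 24.3 CPM. The order NK, CD4, CD8 and B was the same in both libraries with no overlap of neighbouring intervals. Id2 in CD4 cells was unevenly spread, since 5 cells held 63.0% and 71.8% of its reads. Regulatory T-cell markers (Foxp3, Il2ra, Ctla4 and Ikzf2) summed to 181 and 304 CPM in CD4 cells against 11.8 and 23.5 CPM in CD8 cells. Their part in the Id2 level of the CD4 class was not tested.

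Id3 (chr4:136143497-136145755) was highest in B cells and lowest in NK cells. B cells had 115 CPM in TAS-Seq and 76.2 CPM in BD WTA, CD4 cells 52.3 and 50.6 CPM, and CD8 cells 56.2 and 18.3 CPM. NK cells held 1 Id3 read among 798480 reads in TAS-Seq and none among 835439 reads in BD WTA. The CD4 and CD8 intervals overlapped in TAS-Seq and not in BD WTA. Relative to 3 reads in the BD WTA NK class, Id3 was at least 21.2-fold higher in B cells and at least 5.09-fold higher in CD8 cells. The single TAS-Seq read gave a ratio of CD8 to NK cells of 44.9, with an interval from 8.01 to 1778.

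Klf2 (chr8:72319033-72321656) encodes a zinc-finger factor that maintains expression of S1pr1 and so the recirculation of naive lymphocytes. It was widely read, at 1232 and 1282 CPM in B cells, 676 and 657 CPM in NK cells, 552 and 744 CPM in CD8 cells, and 522 and 622 CPM in CD4 cells. B cells were the highest class in both libraries. The order of the other 3 classes differed between the libraries, and CD8 and CD4 overlapped in TAS-Seq and NK and CD4 in BD WTA. Klf2 reads were found in 89.4% and 81.8% of B cells at equal depth, and 5 cells held only 6.09% and 6.53% of the B-cell reads.

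Bach2 (chr4:32238804-32586108) encodes a repressor that binds DNA with small MAF proteins and restrains effector and plasma cell differentiation. Its level was 146 and 139 CPM in B cells, 80.2 and 116 CPM in CD4 cells, 30.5 and 69.7 CPM in CD8 cells, and 33.8 and 82.6 CPM in NK cells. B cells were highest and CD4 cells next in both libraries. The NK and CD8 intervals overlapped in both, and those of CD4 and NK cells also overlapped in BD WTA. Bach2 reads were in 30.4% and 23.7% of B cells, and in 11.5% and 13.6% of CD8 cells.

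**Figure D2:**
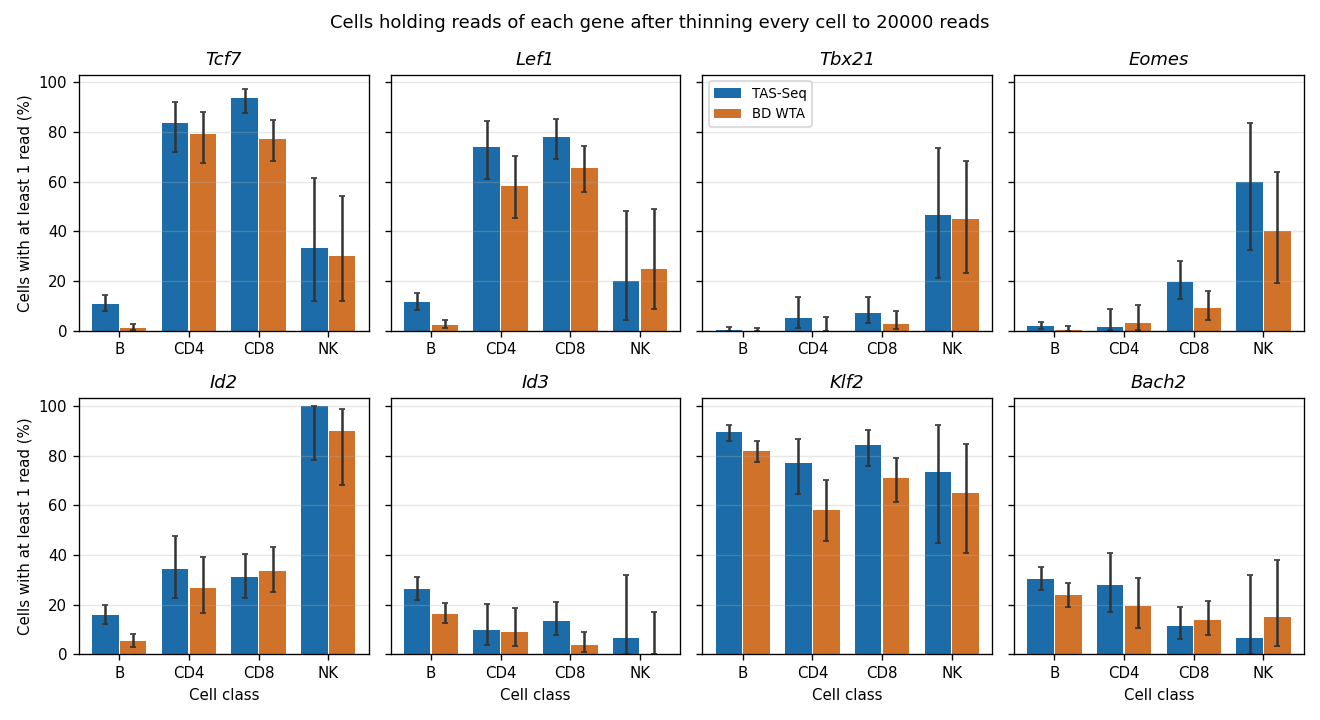
Percent of cells with at least 1 read of each gene after every cell was thinned to 20000 reads, in B, CD4, CD8 and NK cells of the TAS-Seq (blue) and BD WTA (orange) libraries, with exact 95% binomial intervals. Tcf7 reads reach 93.8% and 77.3% of CD8 cells and Id2 reads 100% and 90.0% of NK cells, whereas Tbx21 reads stay under 10% outside NK cells.

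Reads of several factors in the NK class came from few cells. The 5 cells with the most reads held 99.5% and 96.9% of the Tcf7 reads, 93.5% and 96.2% of the Lef1 reads and 100% of the Bach2 reads of this class. For Tbx21 the same share was 88.7% and 86.3%, and for Eomes 88.6% and 81.5%. Klf2 (72.8% and 63.4%) and Id2 (61.2% and 48.8%) were spread over more cells. NK levels of Tcf7, Lef1 and Bach2 are thus levels of a few cells of 15 and 23. T-cell markers in this class (582 and 1178 CPM) were above those of B cells, Cd4 was at 2.50 CPM in TAS-Seq and 0 in BD WTA, and Cd8a with Cd8b1 at 12.5 CPM and 0. Their part in the Tcf7 and Lef1 reads of NK cells was not tested.

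The class differences were then counted over the 8 genes. A gene was compared when it had at least 10 CPM in a class of the pair and reads in at least 10 cells, and it was called when the log2 ratio, with 1 CPM added to each level, reached 1 in either direction. CD8 over B cells answers which factors separate T cells from B cells. In TAS-Seq 5 of the 8 genes were called higher in CD8 cells (Tcf7, Lef1, Tbx21, Eomes and Id2), against 8.07% of 9965 genes compared, and 3 were called lower (Id3, Klf2 and Bach2), against 21.1%. In BD WTA 7 genes could be compared. Of these, 4 were called higher (Tcf7, Lef1, Eomes and Id2), against 10.9% of 9370 genes, and Id3 lower, against 23.1%. Both libraries thus gave 5 genes in common, 4 higher and 1 lower, against 4.52% and 12.3% of genes compared in both. With 1 CPM added, the largest log2 ratios were those of Tcf7, at 6.19 in TAS-Seq and 6.94 in BD WTA, followed by Lef1 at 5.60 and 6.81. For Id2 the log2 ratio was 1.37 and 2.54, for Eomes 4.81 and 3.86, and for Id3 -1.02 and -2.00. The TAS-Seq call of Id3 ended with TMM scaling of the class totals (-0.86), with clusters (-0.91) and with 5 CPM added (-0.97), and the BD WTA call of Id2 ended with clusters (0.86). Klf2 (-1.16 and -0.78) and Bach2 (-2.22 and -0.99) were lower in CD8 cells in both libraries but passed 2-fold in TAS-Seq alone, Bach2 only just missing it in BD WTA. The TAS-Seq call of Klf2 ended narrowly with TMM scaling (-0.99).

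CD4 over B cells gave 3 genes higher in each library, Tcf7, Lef1 and Id2 in both, against 11.2% (TAS-Seq) and 13.6% (BD WTA) of all genes. Klf2 was lower in both, with log2 ratios of -1.24 and -1.04, against 21.0% and 23.2% of genes called lower. Of genes compared in both libraries, 4.76% were called higher and 11.2% lower in both. The BD WTA call of Klf2 ended narrowly with doublets removed, and with 10 reads asked of a class marker (-0.96). Id3 was called lower in TAS-Seq (-1.12) and stood at -0.58 in BD WTA. The Tcf7 log2 ratio was 6.66 and 7.29, and the Lef1 log2 ratio was 5.62 and 6.76. NK over B cells gave 5 genes higher in each library (Tcf7, Lef1, Tbx21, Eomes and Id2), against 22.4% and 21.5% of genes. Id3 was lower in both, against 32.6% and 34.1%, while calls shared by both libraries were 7.81% higher and 16.6% lower over all genes. Bach2 was called lower in TAS-Seq (-2.08) and stood at -0.74 in BD WTA. When 2 reads sufficed for a class marker, which left 9 NK cells in TAS-Seq, the log2 ratios of Tcf7 and Lef1 in that library turned to -0.51 and -0.70.

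NK over CD8 cells asks how the cytotoxic innate and adaptive lymphocytes differ. In both libraries 3 genes were called higher in NK cells, Tbx21, Eomes and Id2, against 25.5% (TAS-Seq) and 23.0% (BD WTA) of all genes. Their log2 ratios were 2.86 and 4.92 for Tbx21, 2.13 and 3.90 for Eomes, and 3.78 and 3.29 for Id2. Tcf7 and Lef1 were lower in NK cells in both libraries, against 30.7% and 26.7% of genes called lower (9.09% higher and 13.3% lower in both libraries), with log2 ratios of -1.48 and -1.47 for Tcf7 and -3.76 and -2.06 for Lef1. Id3 was also called lower in TAS-Seq and could not be compared in BD WTA, where it was read in fewer than 10 cells of the pair. Klf2 (0.29 and -0.18) and Bach2 (0.14 and 0.24) did not reach 2-fold, and TMM scaling of the class totals, which shifts every NK over CD8 log2 ratio by -0.48 and -0.44, turned the sign of Bach2 in both libraries and of Klf2 in TAS-Seq.

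**Figure D3:**
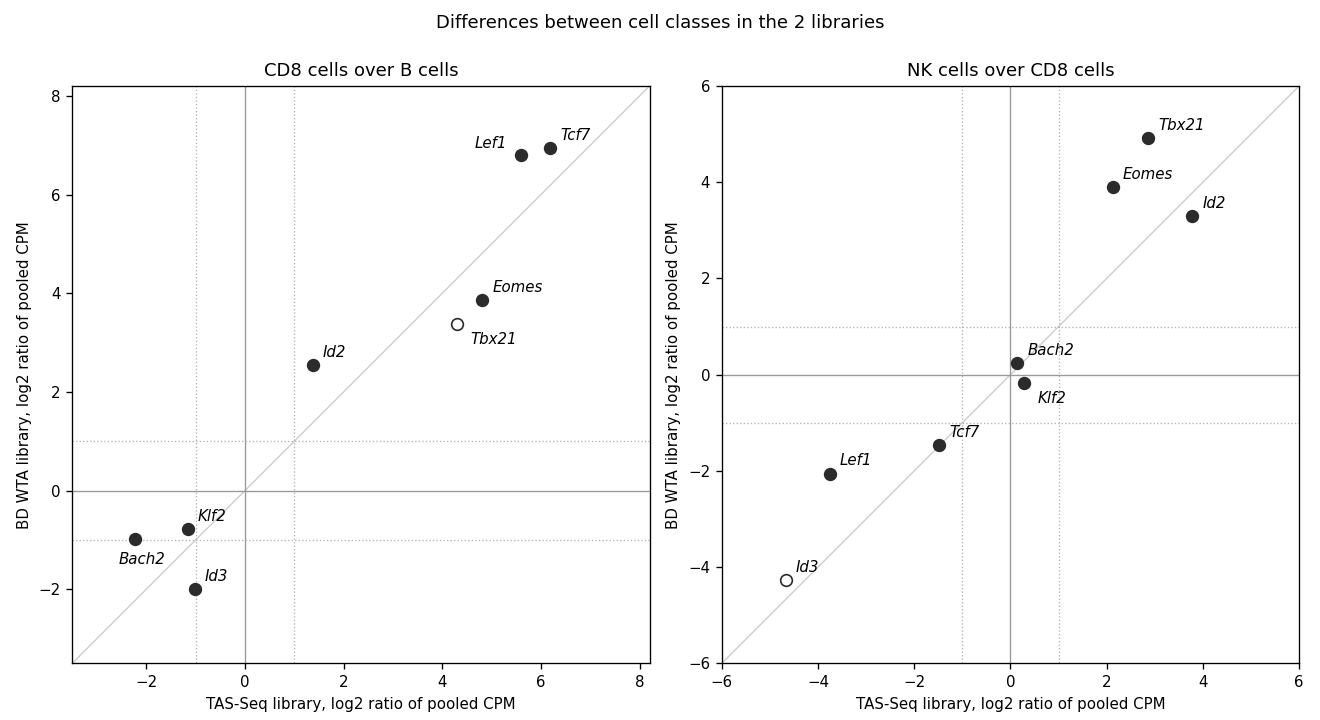
Log2 ratio of pooled CPM (1 CPM added) in the TAS-Seq library against the BD WTA library for CD8 over B cells and NK over CD8 cells, with dotted lines at 2-fold and a diagonal for equal ratios. Open circles mark Tbx21 and Id3, which could not be compared in both libraries and whose place depends on the added 1 CPM. Tbx21, Eomes and Id2 lie above 2-fold and Tcf7 and Lef1 below it for NK over CD8 cells in both libraries.

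CD4 over CD8 cells gave no gene called in both libraries. In TAS-Seq, Id2 (1.43) and Bach2 (1.37) were called higher in CD4 cells, against 12.2% of genes, and Eomes lower (-4.20), against 9.90%. In BD WTA only Id3 was called, higher in CD4 cells at 1.42 against 13.5% of genes, and none lower, against 11.1%. Over all genes, 2.39% were called higher and 1.6% lower in both libraries. The corresponding TAS-Seq ratio of Id3 was -0.10. The Tcf7 ratio was 0.47 and 0.35 and the Lef1 ratio 0.01 and -0.05, so neither HMG-box gene came near 2-fold between the T-cell classes.

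The libraries were also compared with each other within each class. In B cells 5 of the 8 genes could be compared, and Lef1 was called higher by TAS-Seq (log2 ratio 1.25), against 12.3% of genes, with 10.1 and 3.65 CPM on the edge of the level filter. None was called lower, against 6.07%. In CD8 cells all 8 could be compared. Tbx21 (1.04), Eomes (1.41) and Id3 (1.57) were called higher by TAS-Seq, against 18.5% of genes, and Bach2 lower (-1.17), against 12.3%. In CD4 cells none of 6 genes was called, against 20.6% higher and 14.0% lower. In NK cells 6 could be compared, none was called higher, against 16.8%, and Lef1 (-1.66) and Tbx21 (-1.01) were called lower, against 17.9%. Tcf7, Id2 and Klf2 were not called between the libraries in any of the 4 classes, with log2 ratios from -0.43 to 0.99. The last is Id2 in B cells, 49.4 and 24.3 CPM, which is 2.03-fold before 1 CPM is added, and Tcf7 was too low in B cells to be compared. The genes called between libraries in CD8 cells were those with reads in few cells. Tbx21 was read in 8 of 113 and 3 of 110 CD8 cells, Eomes in 22 and 10, Id3 in 15 and 4, and Bach2 in 13 and 15. With the minimum of 2 reads for a class marker, which left 62 CD8 cells in TAS-Seq, the Tbx21 ratio turned to -2.65. That call also ended with TMM scaling (0.99), with the mean of each cell's CPM (0.81) and with 5 CPM added (0.82), and the Bach2 call with the mean of each cell's CPM (-0.85), clusters (-0.97) and thinning (-0.96). The NK call of Tbx21 ended with TMM scaling (-0.96) and, among other alternatives, with 10 reads asked of a class marker (-0.51).

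CD8 cells were divided by how many of 4 memory markers (Ccl5, Ly6c2, Cd44 and Nkg7) they held with at least 5 reads. In TAS-Seq 27 cells had none, 41 had 1 and 47 had 2 or more, and in BD WTA there were 34, 45 and 34 cells. These are ranges of a count and not cell types. Median reads per cell were 48446, 53223 and 74401 in TAS-Seq and 36927.5, 46216 and 58575 in BD WTA. Cells with more markers were thus also read more deeply. Cells were placed by all their reads, and only the thinning alternative placed them again at equal depth. The part of depth in placing cells was not tested further. Shares below are at 20000 reads.

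Eomes reads, counted from 1 read, were found most often in cells with 2 or more memory markers in both libraries. By TAS-Seq its reads were in 0 of 26 cells without memory markers, which allows a share of up to 11.5% (3 of 26) or 13.2% by the exact interval, in 4.88% of cells with 1 and in 43.5% (28.9 to 58.9) of cells with 2 or more. By BD WTA the shares were 6.25%, 2.27% and 20.6%, and at 5 reads 3.12%, 2.27% and 2.94%, which is 1 cell in each range. In TAS-Seq the level with 2 or more markers was 126 CPM, at least 55.3-fold above the 3-read floor of the cells without markers. In BD WTA the level was 41.0 CPM with 2 or more markers and 28.2 CPM with none, a log2 ratio of 0.53. Tbx21 had no reads in cells without memory markers in either library, and 120 and 51 reads in cells with 2 or more, which is at least 14.3-fold and 10.6-fold above the floor. Those reads came mostly from few cells, 5 cells holding 94.2% and 100% of them, and Tbx21 was read in too few cells to be compared in either library.

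Tcf7 was read at all 3 ranges, with 842, 636 and 743 CPM in TAS-Seq and 858, 699 and 744 CPM in BD WTA. Its share of cells was 84.6%, 95.1% and 97.8% in TAS-Seq and 71.9%, 79.5% and 79.4% in BD WTA. At 5 reads the TAS-Seq share was 57.7% without markers and 84.8% with 2 or more, and the BD WTA share 59.4% and 55.9%. The pooled Tcf7 level was lower with 2 or more markers than with none in both libraries, without overlap of the intervals, by 0.18 and 0.21 on the log2 scale. These levels leaned on few cells, since 5 cells held 64.1% and 46.0% of the Tcf7 reads without markers. With 2 or more markers 5 cells held 24.2% and 57.6%. Lef1 stood at 465, 724 and 450 CPM in TAS-Seq and at 762, 524 and 367 CPM in BD WTA, where the last was called lower than the first (log2 ratio -1.05). Of the 22 TAS-Seq CD8 cells with Eomes reads, 21 also had Tcf7 reads, as did 8 of 10 in BD WTA. Tcf7 was read in 106 of 113 and 85 of 110 CD8 cells. The product of the 2 shares would give 20.6 and 7.73 cells with both, so the overlap was near that product.

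Between cells with 2 or more memory markers and cells with none, TAS-Seq called 2 of 7 genes higher (Eomes and Id3), against 17.6% of genes, and none lower, against 11.8%. Id3 turned to -1.17 with the minimum of 2 reads for a class marker and lost its call with the mean of each cell's CPM (0.58), clusters (0.43) and thinning (0.96). BD WTA called none of 5 higher, against 14.7%, and Lef1 and Id2 lower, against 10.7%. With 10 reads asked of a memory marker these ratios were -0.76 and -0.94, and thinning brought Lef1 to -0.80. No gene was called in both, where 2.53% of all genes were called higher and 1.27% lower. Id2 stood at 123 and 114 CPM in TAS-Seq and at 85.0 and 196 CPM in BD WTA for 2 or more and no markers. Il2rb, the receptor chain shared by IL-2 and IL-15, was called higher in both libraries, at 348 against 66.9 CPM and at 685 against 37.5 CPM.

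**Figure D4:**
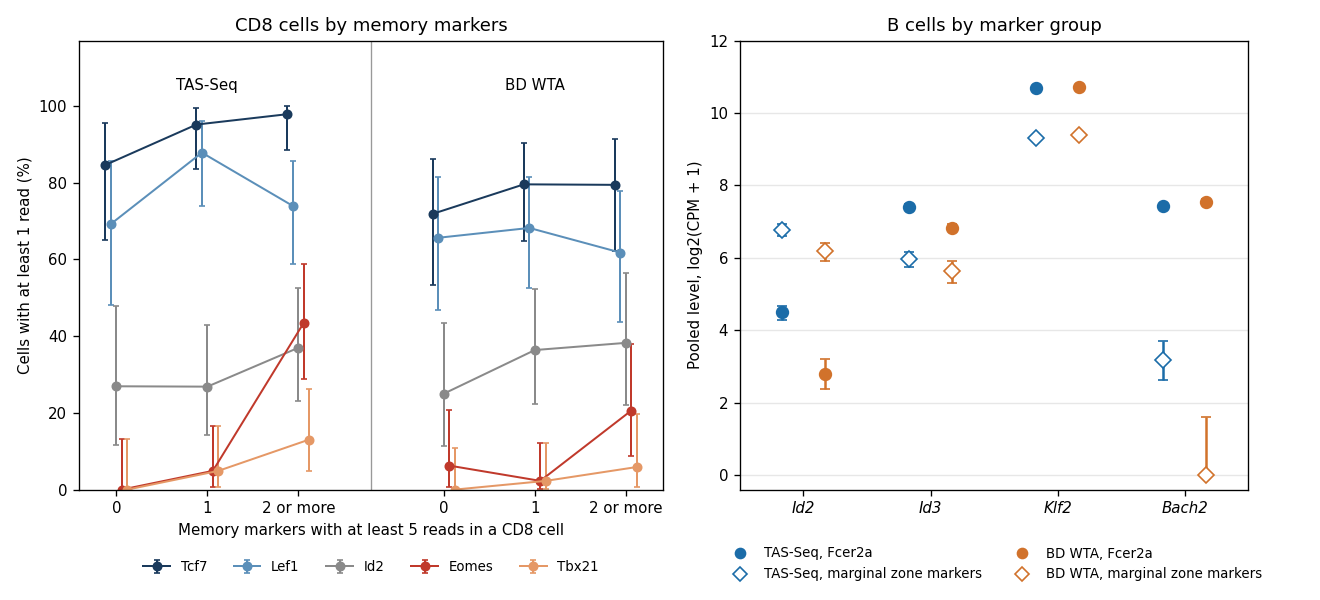
Left, percent of CD8 cells with reads of 5 genes at 20000 reads per cell, by the number of memory markers in the cell, with exact 95% binomial intervals. Right, pooled levels as log2(CPM + 1) with exact 95% Poisson intervals in B cells with Fcer2a (filled circles) and B cells with marginal zone markers (open diamonds). Eomes reaches 43.5% and 20.6% of CD8 cells with 2 or more markers, and Bach2, Klf2 and Id3 lie lower and Id2 higher in B cells with marginal zone markers.

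B cells were divided in a similar way. Cells with at least 5 reads of Fcer2a (CD23, a follicular B-cell marker) and at most 1 of 5 marginal zone markers (Cr2, Dtx1, S1pr3, Cd9 and Myof) numbered 230 in TAS-Seq and 181 in BD WTA. Cells with no Fcer2a at that minimum and at least 3 of the 5 markers numbered 33 and 21. In both libraries 4 members were called and in the same direction. Id2 was higher in cells with marginal zone markers, against 11.4% (TAS-Seq) and 12.2% (BD WTA) of genes, and Id3, Klf2 and Bach2 were lower, against 15.4% and 21.6%. Over genes compared in both libraries, 2.19% were called higher and 5.23% lower in both. Median reads per cell were 83892 and 72806 in the marginal zone group and 39740.5 and 33913 in the Fcer2a group. When every cell was thinned to 20000 reads, none of the called ratios of these 4 members shrank below 2-fold. The part of depth in these differences was not tested further.

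Bach2 stood at 171 CPM in TAS-Seq and 186 CPM in BD WTA in the Fcer2a group, and at 8.13 CPM and 0 reads in the marginal zone group. The log2 ratio was -4.23 in TAS-Seq, and in BD WTA the Fcer2a group was at least 111-fold higher than the 3-read floor. Bach2 reads were in 34.1% and 25.6% of the first group and in 6.06% and 0 of 21 cells of the second, which allows a share of up to 14.3% (3 of 21) or 16.1% by the exact interval. Klf2 stood at 1639 and 1680 CPM in the Fcer2a group and 637 and 665 CPM in the marginal zone group, with log2 ratios of -1.36 and -1.34. The 2 libraries thus gave nearly the same levels for Klf2 in each group.

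Id3 was 169 and 113 CPM in the Fcer2a group and 61.3 and 48.5 CPM in the marginal zone group, with log2 ratios of -1.45 and -1.21, the latter -0.82 with the mean of each cell's CPM. Its share of cells differed less, at 28.7% and 17.9% against 24.2% and 14.3%, and 5 cells held 90.1% and 100% of its reads in the marginal zone group. Id2 went the other way, from 21.5 and 5.99 CPM in the Fcer2a group to 108 and 71.3 CPM, with log2 ratios of 2.28 and 3.37. Its share was 14.3% and 1.19% against 30.3% and 38.1%. In the marginal zone group 5 cells held 87.5% and 89.8% of the Id2 reads, and 1 of 21 BD WTA cells had 5 reads. Ccr7, a homing receptor of recirculating lymphocytes from the naive trafficking list, was called lower in the marginal zone group in both libraries, at 76.5 against 292 CPM and at 87.0 against 198 CPM.

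Some T cells had no Cd4, Cd8a or Cd8b1 at 5 reads, 72 in TAS-Seq and 84 in BD WTA. Their Tcf7 level was 793 and 768 CPM, between the CD8 and CD4 levels in both libraries, but its interval overlapped that of CD8 cells in BD WTA. Their Id2 level was 632 and 590 CPM, above the CD8 and CD4 levels. Gamma delta T-cell markers summed to 252 and 437 CPM in these cells, and regulatory T-cell markers to 484 and 212 CPM, so the order of the lists differed between the libraries. Among CD4 cells and these T cells, with CD8 and other T cells left out, 13 and 11 held at least 2 regulatory T-cell markers. Their Id2 level was 1406 and 818 CPM, with 98.9% and 97.6% of the reads in 5 cells, and their Bach2 level 3.23 and 1.92 CPM, and they held no Eomes read in either library. Klf2 there was 273 and 309.7 CPM, lower than in CD4 cells in both libraries.

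Partners and targets of the 8 genes were followed in 6 lists with 42 genes in all. Counts of listed genes called in both libraries stand beside 4.52% higher and 12.3% lower over all genes for CD8 over B, and 9.09% and 13.3% for NK over CD8, while in a single library up to 25.5% were higher and 30.7% lower for NK over CD8. E proteins, the partners that ID2 and ID3 hold away from DNA, were lower in CD8 than in B cells for Tcf3 and Tcf4, 2 of 3 genes in both libraries. Tcf3 stood at 34.1 against 132 CPM in TAS-Seq and 29.5 against 107 CPM in BD WTA, and Tcf4 at 6.74 against 262 CPM and 1.99 against 223 CPM. Tcf12 was within 2-fold. The list median was a log2 ratio of -1.92 and -1.83, beside -0.16 and -0.14 over all genes compared. Tcf3 was also lower in NK than in CD8 cells in both libraries. The list as a whole differed there, with 1 of 3 genes called higher in BD WTA and medians of -1.27 in TAS-Seq and 0.38 in BD WTA. Cofactors (Ctnnb1, 4 Tle genes, Mafk and Mafg) gave 1 of 7 genes called in both libraries, Mafg, which was lower in CD8 than in B cells, and none for NK over CD8 cells.

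Other factors of naive lymphocytes were called higher in CD8 than in B cells for 3 of 6 genes in both libraries. Bcl11b, which maintains T-cell identity, stood at 235 and 338 CPM against 2.41 and 0.833 CPM, Satb1, a chromatin organizer, at 391 and 311 against 150.5 and 118 CPM, and Myb at 68.5 and 86.4 against 15.4 and 15.2 CPM. The list median was 0.64 and 0.86. For NK over CD8 cells 2 of 6 were lower in both, Bcl11b and Satb1, against 30.7% and 26.7% of all genes in the single libraries and 13.3% in both, with list medians of -1.03 and -0.61 beside 0.05 and 0.01 over all genes. Of the naive trafficking and survival list, 3 of 6 were higher in CD8 than in B cells in both libraries, Cd27, Cd28 and Il7r. For NK over CD8 cells 5 of 6 were lower in both libraries, the most of any list. Ccr7 stood at 1.25 and 0 CPM in NK cells against 179 and 171 CPM in CD8 cells, and Il7r, the IL-7 receptor, at 204 and 87.4 against 812 and 712 CPM. The list median was -3.97 and -2.18, or -3.19 and -2.18 with classes at 0 set to 3 reads.

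Other factors of effector lymphocytes were called higher in NK than in CD8 cells for 3 of 8 genes in both libraries, against 9.09% of all genes in both and 25.5% and 23.0% in the single libraries. Zeb2 stood at 397 and 212 against 1.51 and 13.6 CPM, Runx3 at 622 and 536 against 190.3 and 170.0 CPM, and Ikzf3 at 134 and 138 against 41.4 and 57.6 CPM. The list median was 1.94 and 1.65. In CD8 over B cells the same list was divided, with Gata3 and Tox higher and Bhlhe40, Ikzf3 and Zeb2 lower in both libraries. Effector genes were higher in NK than in CD8 cells for 5 of 12 genes in both libraries, against 9.09% of all genes, and lower for none in both. In TAS-Seq 7 were higher and 2 lower, Gzmm at 10.0 against 45.9 CPM and Cxcr3 at 0 against 38.8 CPM. Among them, Gzmb (granzyme B) stood at 964 and 629.6 CPM against 0.412 CPM and 0, Prf1 (perforin) at 2143 and 578 against 52.0 and 28.8 CPM, and Il18rap at 417 and 334 against 15.5 and 2.90 CPM. Gzmk was not read in any of the 4 classes of either library.

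Finally, genes whose levels followed a member across single T and NK cells were listed, over 262 TAS-Seq and 277 BD WTA cells at 20000 reads each and 4080 genes read in at least 10% of them in both libraries. These correlations are across cells of 1 library each, share its depth and are given as a description. Tbx21 was followed most closely by Klrb1c (r 0.39 and 0.44), Ccl5 (0.38 and 0.46) and Il2rb (0.38 and 0.34), Eomes by Ccl5 (0.46 and 0.36), Il2rb (0.41 and 0.29) and Nkg7 (0.37 and 0.26), and Id2 by Klrb1c (0.53 and 0.44), Il2rb (0.41 and 0.40) and Ccl5 (0.38 and 0.44). All 3 therefore had Ccl5 and Il2rb among their first 3 genes, and Klrb1c, which also served as an NK class marker, led for Tbx21 and Id2. Ccl5 and Nkg7 also served as memory markers above. For Tcf7 the genes were AC109138.2 (0.39 and 0.35), the long intergenic RNA AC160336.1 (0.33 and 0.32) and the ribosomal protein gene Rpl31 (0.31 and 0.28). For Lef1 they were Rpsa (0.28 and 0.24) and the processed pseudogenes Rps13-ps1 (0.24 and 0.23) and Gm9616 (0.22 and 0.23), whose reads can be shared with near copies and are uncertain. No gene reached 0.2 in both libraries for Id3, Klf2 or Bach2. Id3 was read in only 14.1% and 4.69% of these cells, which leaves little to correlate.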

How the data were processed

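Both libraries were read from tables of counts as the authors deposited them, that is, unnormalized read counts for each gene in each cell barcode, with no unique molecular identifiers. The submitters' processing notes name cutadapt 2.10, Bowtie2 2.4.2, R 3.6.3 and the builds GRCm38 and GRCh38. By the study's methods, mapping was done on the forward strand to Ensembl mouse cDNA and non-coding RNA, and barcodes above the inflection point of ranked totals were kept. Read counts without identifiers also reflect amplification, and mapping to transcripts can divide reads among near copies of a gene. A subtraction of background reads described for the study is not stated for these tables.

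Cells with at least 500 genes and at most 25% mitochondrial reads were kept (732 of 736 and 708 of 716). A marker was present with at least 5 reads. A class needed 3 of its 6 markers, among them Cd79a, Cd79b, Ms4a1, Cd22 and Ighd for B cells, Cd3e, Cd3d, Cd3g, Trac, Trbc2 and Lck for T cells, and Ncr1, Klrb1c, Klre1, Klra4, Klra8 and Gzma for NK cells. Cells with 3 markers of another class were left out, as were T and NK cells with 2 B-cell markers. T cells were then divided by Cd4 against Cd8a or Cd8b1. This rule was set after marker values were seen, and 56 and 62 cells stayed in no class. Scrublet (scanpy 1.11.5) marked 3 and 4 cells as doublets, and these were kept in the main settings.

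Levels were pooled CPM with Poisson intervals. Shares used cells thinned to 20000 reads (707 and 645 cells) with exact binomial (Clopper-Pearson) intervals. Log2 ratios had a pseudocount of 1 CPM. Reads are not independent molecules, so intervals, and floors of 3 reads, cover counting error only. Every test across samples was left out because each method has 1 library. Clusters came from Seurat 5.3.0 and TMM factors from edgeR 4.0.16, both as alternatives, with Python 3.11.15, numpy 2.4.6, pandas 2.3.3, scipy 1.17.1 and R 4.3.3. Ratio calls and correlations were tested on simulated data. These were Poisson draws of pooled class totals, and well-read genes for the correlations. They cannot show how calls or correlations fare where few cells hold the reads, as for several genes here. The 8 genes and the gene lists were chosen with earlier results of these data known. All 8 genes are described in every class. From each list at most 4 genes with large log2 ratios of the same sign in both libraries are given with values, Gzmk, Gzmm and Cxcr3 being added after their values were seen, and some genes of the lists are not reported here by name. Genes that follow a member are the first 3 by the lower of the 2 Pearson r, where that is at least 0.2. Promoter windows came from RefSeq on GRCm38.p6, and gene positions from GENCODE, whose release is older than the Ensembl release the authors mapped to.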

Additional observations from a re-analysis of the deposited data

Results flagged for a closer look

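In 2 comparisons the log2 ratio of a member that passed the filter in both libraries had opposite signs in the libraries and was at least 1 in size in one of them. For CD4 over CD8 cells the log2 ratio of Id3 was -0.10 in TAS-Seq and 1.42 in BD WTA. For CD8 cells with at least 2 memory markers over CD8 cells with none, the log2 ratio of Id2 was 0.11 in TAS-Seq and -1.20 in BD WTA. Neither difference between the libraries was tested, since each method has 1 library. Id3 reads were found in 15 of 113 TAS-Seq and 4 of 110 BD WTA CD8 cells, and 5 cells held 79.7% of the Id2 reads of the BD WTA cells without memory markers.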

How the results depend on the processing

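No paired analysis was possible because a single library stands for either method, which also leaves no replicate to take out. Counts of members called in both libraries were 5 for CD8 over B, 4 for CD4 over B, 6 for NK over B, 5 for NK over CD8, 0 for CD4 over CD8 and 4 between the B-cell groups. Over all alternatives these ranged from 3 to 6, 3 to 4, 3 to 8, 4 to 5, 0 to 0 and 3 to 4, with 4 for CD8 over B and 8 for NK over B under TMM. Over 22 such counts and shares, 158 of 184 alternatives stayed within 1.5 times the main count or within the interval of the share, and 26 did not. Seurat clusters made without the members gave 3 for CD8 over B, where TAS-Seq NK cells shared a cluster with T cells and had no cluster of their own. Thinning to 20000 reads gave 3 for NK over B, as did a class marker minimum of 2 reads, and a level filter of 50 CPM left 10 of 17 list genes for CD8 over B. Between the libraries, the 1 B-cell call (Lef1) became 0 with TMM, clusters, 50 CPM or a pseudocount of 5 CPM, and 2 with the minimum of 2 reads. The absence of CD4 calls became 1 with the mean of each cell's CPM, clusters, thinning or that minimum. The 4 CD8 calls became 2 with the mean of each cell's CPM, and the 2 NK calls became 1 with TMM, doublets removed, thinning, a pseudocount of 5 CPM or a minimum of 10 reads. Shares at 5 reads were 78.0% and 75.4% of B cells for Klf2, 73.5% and 60.0% of CD8 cells for Tcf7, and 9.73% and 1.82% for Tcf7 with Eomes, against 18.6% and 7.27% at 1 read. Without thinning, Klf2 was read in 95.1% of TAS-Seq B cells. Among 1560 alternatives of single log2 ratios, 1418 moved by less than 0.5, 138 by more, and 4 called ratios turned sign. All 4 came from the minimum of 2 reads for a class marker, chosen like the minimum of 10 reads after seeing the data, which cut the TAS-Seq classes to 9 NK and 62 CD8 cells. They were Tcf7 (-0.51) and Lef1 (-0.70) for NK over B in TAS-Seq, Tbx21 (-2.65) for TAS-Seq over BD WTA in CD8 cells, and Id3 (-1.17) for memory markers in TAS-Seq. The cause was not tested for these or the counts above. TMM was not run for the groups within CD8 and B cells. Depth was least in the NK class, of 15 and 23 cells, and a ratio was called only with reads in at least 10 cells of both groups together and 10 CPM in either group.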
